A study of Mus musculus with 4 samples.

Results

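The 4 Hox clusters hold the homeobox genes that give body segments their identity along the head to tail axis. The regions described here are the rows of the authors' deposited table of differentially methylated regions that lie wholly inside a Hox cluster or within 50 kb of it. Each cluster was taken from the first to the last of its member genes (10 in Hoxa, 10 in Hoxb, 9 in Hoxc and 9 in Hoxd, 38 in all), and both sides were widened by 50 kb, giving 4 windows with a summed length of 885 kb. The windows held 61 of the 101350 listed regions: 10 in Hoxa, 19 in Hoxb, 24 in Hoxc and 8 in Hoxd. The positions in mm10 are chromosome 6 from 52112417 to 52310880 for Hoxa, chromosome 11 from 96144316 to 96418254 for Hoxb, chromosome 15 from 102871131 to 103086856 for Hoxc, and chromosome 2 from 74618225 to 74815142 for Hoxd.

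HOX proteins are transcription factors that bind DNA together with the TALE homeodomain proteins of the MEIS and PBX families. Within a cluster, genes with low paralog numbers act in anterior and those with high numbers in posterior parts of the embryo, and the order on the chromosome follows that of the domains. In the forebrain, which lies in front of the expression domains of the Hox genes, the clusters are known as large domains silenced by Polycomb proteins, with histone H3 methylated on lysine 27 and little DNA methylation over their CpG-rich stretches.

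Mouse somatosensory cortex, taken at 2.5 months, was profiled by whole-genome bisulfite sequencing, which reads unmethylated cytosines as T. The knockout group (cKO, 2 libraries) is labelled Nsd1Nex-cKO, a conditional deletion of Nsd1 under the Nex (Neurod6) driver, which acts in excitatory neurons, so other cells of the tissue keep the gene. The control group (2 libraries) is labelled Nsd1fl/+, with 1 floxed allele and no mention of Cre. NSD1 is a histone methyltransferase that methylates lysine 36 of histone H3. Levels below are the authors' means per group, in percent of cytosines read as methylated, in the contexts CG and CHH (H is A, C or T). The authors listed regions because the groups differed there, so the levels describe called regions and not the windows at large. The table gives no value per library and no read depth, so neither a spread nor a test over libraries could be set beside any difference, and sampling error is unknown. In bulk tissue a change of level within cells and a change in the share of cell types cannot be told apart. The identity of the tissue could not be checked against marker expression, because only methylation was measured. Inside Nsd1 itself the authors' deposited table lists 5 CHH regions and 2 CHG regions higher in cKO and 1 CG region lower.

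The RefSeq promoters of 4 members (build GRCm38.p6, the assembly of mm10) are printed because, of the 8 members that overlap a listed region, these have a promoter entry. Each runs 5′ to 3′ from 250 bases before the start site to 50 after it, and CG dinucleotides are in capitals.
Hoxa9 (chr6:52227321-52227620, minus strand): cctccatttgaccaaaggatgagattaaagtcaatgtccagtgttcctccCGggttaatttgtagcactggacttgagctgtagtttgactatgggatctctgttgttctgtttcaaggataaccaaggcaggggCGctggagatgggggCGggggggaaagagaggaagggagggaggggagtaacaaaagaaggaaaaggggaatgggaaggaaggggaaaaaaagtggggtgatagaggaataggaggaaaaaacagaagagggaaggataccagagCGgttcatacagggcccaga
Hoxc4 (chr15:103034145-103034444, plus strand): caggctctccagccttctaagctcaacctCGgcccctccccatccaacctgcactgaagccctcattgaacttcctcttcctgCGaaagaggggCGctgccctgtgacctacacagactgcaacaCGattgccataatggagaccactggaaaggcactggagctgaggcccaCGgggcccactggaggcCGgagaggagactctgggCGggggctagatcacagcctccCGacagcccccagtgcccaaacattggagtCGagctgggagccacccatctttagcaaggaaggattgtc
Hoxd3 (chr2:74711743-74712042, plus strand): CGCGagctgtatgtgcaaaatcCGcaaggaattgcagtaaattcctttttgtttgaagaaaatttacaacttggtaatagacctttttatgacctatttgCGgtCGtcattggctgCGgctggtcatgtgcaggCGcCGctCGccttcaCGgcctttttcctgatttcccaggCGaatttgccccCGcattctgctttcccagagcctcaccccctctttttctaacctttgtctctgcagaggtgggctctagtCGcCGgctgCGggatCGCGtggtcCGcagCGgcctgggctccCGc
Hoxd8 (chr2:74704365-74704664, plus strand): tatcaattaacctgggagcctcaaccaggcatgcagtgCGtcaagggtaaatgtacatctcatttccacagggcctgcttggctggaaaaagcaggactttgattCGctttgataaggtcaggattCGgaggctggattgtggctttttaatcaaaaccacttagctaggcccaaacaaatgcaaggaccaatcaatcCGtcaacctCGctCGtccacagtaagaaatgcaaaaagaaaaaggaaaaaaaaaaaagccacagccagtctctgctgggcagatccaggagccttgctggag
They hold 4 (Hoxa9), 9 (Hoxc4), 20 (Hoxd3) and 6 (Hoxd8) CG dinucleotides. The clusters also encode 6 microRNA genes in these windows, and 5 of their mature products are given from RefSeq because listed regions lie near some of them, with the seed (bases 2 to 8) in capitals.
mmu-miR-196a-5p: uAGGUAGUuucauguuguuggg
mmu-miR-196b-5p: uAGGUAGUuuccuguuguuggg
mmu-miR-10a-5p: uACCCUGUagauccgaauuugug
mmu-miR-10b-5p: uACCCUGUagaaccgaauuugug
mmu-miR-615-3p: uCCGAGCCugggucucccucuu
The miR-196 products of Hoxa, Hoxb and Hoxc share one seed, and the miR-10 products of Hoxb and Hoxd share another.

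Methylation was lower in cKO at nearly every region listed in the Hox windows. Of the 61 regions, 59 were lower. All 43 CHH regions were lower, where 84.0% of the CHH regions in the whole table were lower. Of the 18 CG regions 16 were lower (88.9%), where 94.4% of all listed CG regions were, and the 2 exceptions lay inside the Hoxa and Hoxd clusters. Among the 619 CHG regions of the table, of which 75.6% were lower, 0 lay in the windows. The median level of the CG losses was 62.7% in control and 33.0% in cKO, against 76.0% and 42.4% for all 44497 CG losses in the table. For the CHH losses the control median was 5.20% and the cKO median 0.858%, against 5.52% and 1.01% for all 45012. Most of the regions, 38, overlapped no RefSeq gene. Outside protein-coding genes the whole table is nearly uniform in direction, with 99.3% of CG and 97.9% of CHH regions lower, so the direction outside the member genes is close to that background.

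**Figure D1:**
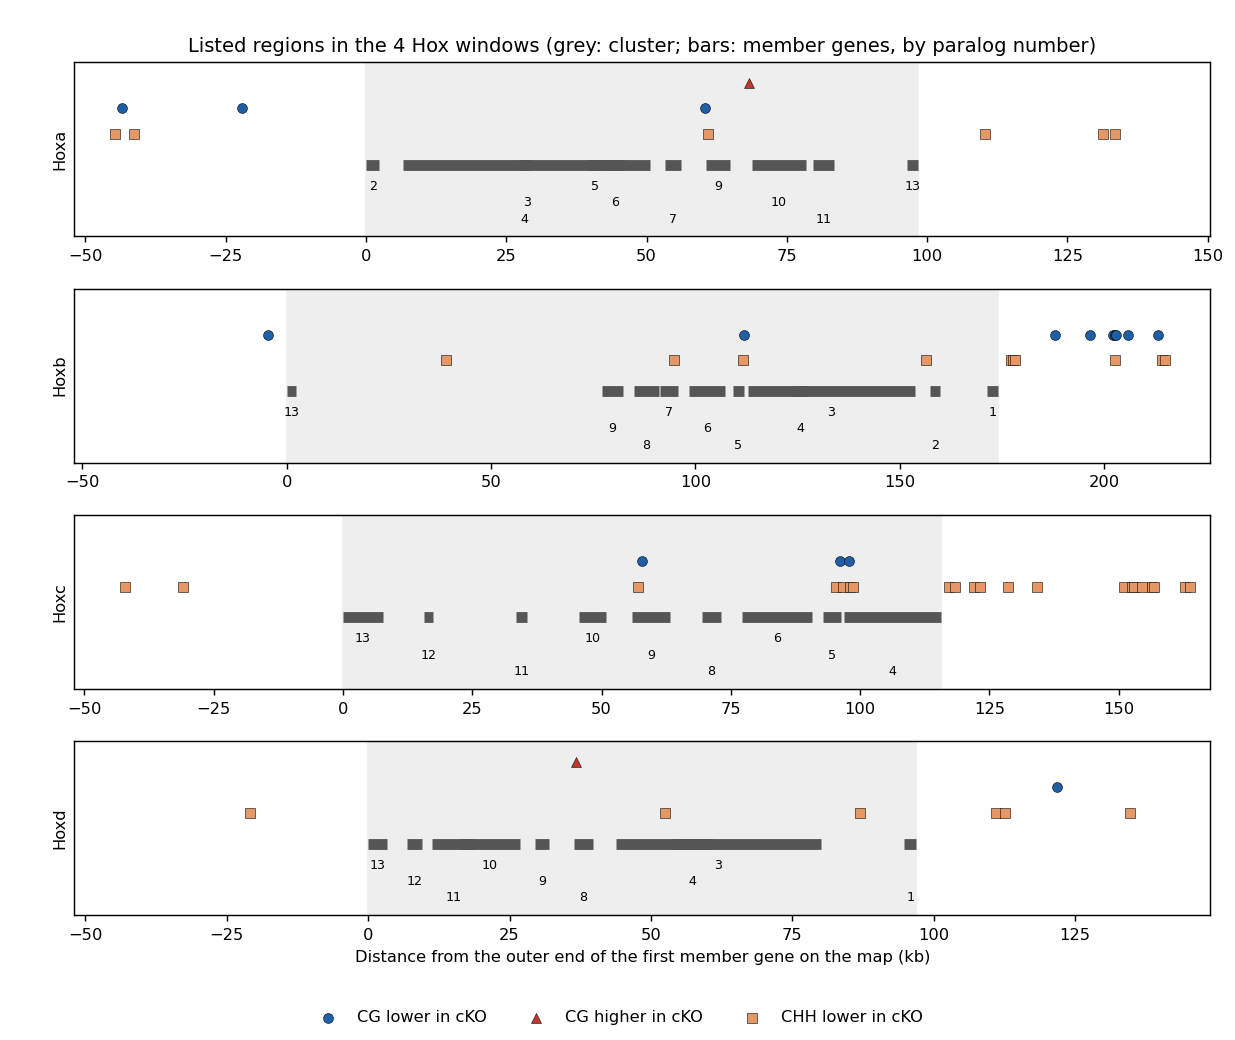
Map of the 61 listed regions in the 4 Hox windows, as distance in kb from the outer end of the first member gene on the chromosome. Dark bars are member genes with their paralog number, the grey field is the cluster, and the symbols mark CG regions lower (circles) or higher (triangles) and CHH regions lower (squares) in cKO. The symbols crowd on the side of Hoxb1 and Hoxc4 and leave long stretches of the clusters empty.

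Of the 38 member genes 8 overlapped a listed region by at least 1 bp: Hoxa9, Hoxb5, Hoxb7, Hoxc4, Hoxc5, Hoxc9, Hoxd3 and Hoxd8. This share, 21.1%, lay under the 37.2% of all 21788 protein-coding genes that overlapped one. Member genes are short, with a median of 3.72 kb (1.78 to 44.0 kb) against 17.2 kb for all protein-coding genes. Among the 32 members between 1.5 and 10 kb long, 6 overlapped a region (18.8%), against 13.4% of the 5733 protein-coding genes of that length. CG losses touched 4 members (10.5%, and 18.6% of all protein-coding genes) and CHH losses 7 (18.4%, and 15.2%). At lengths of 1.5 to 10 kb these were 3 members with a CG loss (9.38%, against 7.36% of genes of that length) and 5 with a CHH loss (15.6%, against 5.56%). A CG gain touched 1 member (7.26% of all protein-coding genes had one, and 1.38% of those of 1.5 to 10 kb), and a CHH gain touched none (15.0% of all, and 0.855% of those of 1.5 to 10 kb). By paralog number, 2 of the 11 members of groups 1 to 4 carried a region, 4 of the 11 of groups 5 to 8 and 2 of the 16 of groups 9 to 13. No member of groups 1, 2, 6, 10, 11, 12 or 13 overlapped one. The other 30 members lay between 0.508 kb (Hoxa10) and 39.5 kb (Hoxc12) from the nearest listed region, with a median of 10.6 kb.

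In the Hoxc cluster, 3 members (Hoxc9, Hoxc5 and Hoxc4) carried losses in both contexts. In Hoxc9, a posterior member known from thoracic spinal cord patterning, CG methylation was 43.1% in control and 15.8% in cKO over 22 cytosines (chromosome 15, 102978882 to 102979056). A CHH loss lay 1063 bp into the same gene, at 5.05% in control and 0.668% in cKO. The CG and the CHH loss of Hoxc9 thus lay within 1 kb of each other. Hoxc5 held a short CG region of 6 cytosines (103017118 to 103017190), with 51.2% in control and 11.1% in cKO. Its level was 4.61-fold higher in control, the largest ratio among the 16 CG losses. That ratio rests on 6 cytosines of unknown depth, where the 16 CG losses held a median of 11. The CHH region of Hoxc5 (103016449 to 103016514) stood at 4.81% in control and 1.003% in cKO. Hoxc5 also hosts Mir615, whose hairpin ends 1.45 kb from that CHH loss. Hoxc4 carried 3 losses within 2 kb of the lower end of its 18.8 kb gene model. Its CG region (103018923 to 103019035, 12 cytosines) had 61.3% in control and 33.6% in cKO. The longest CHH region of the windows overlapped it (103018971 to 103019513, 202 cytosines), with 5.82% in control and 0.859% in cKO. The second CHH region of Hoxc4 had 3.58% in control and 0.535% in cKO. Between Hoxc5 and Hoxc4, one more CHH region (103017703 to 103017770) had 4.70% in control and 0.385% in cKO.

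In the Hoxb cluster the losses inside members lay in Hoxb5 and Hoxb7. At the upper end of Hoxb5, CG methylation was 79.9% in control and 45.2% in cKO over 8 cytosines (chromosome 11, 96306008 to 96306342). A CHH region of 162 cytosines shared bases with it (96305728 to 96306168), at 5.52% in control and 1.22% in cKO. Both regions run past the end of Hoxb5 and also lie in the noncoding gene Hoxb5os, so they cannot be given to one of the 2 genes. In Hoxb7 a CHH region of 41 cytosines (96289103 to 96289183) had 4.45% in control and 0.691% in cKO. Another CHH loss, in Hoxb3os at 0.884 kb from Hoxb2, had 5.22% in control and 0.624% in cKO. The largest relative loss of CHH methylation in the windows lay in the wide gap between Hoxb13 and Hoxb9 (96233219 to 96233310), at 2.68% in control and 0.134% in cKO.

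Hoxa and Hoxd carried fewer losses inside their clusters. Beside Hoxa9, which acts in posterior patterning and in blood stem cells, a CG region 98 bp beyond the gene (chromosome 6, 52222837 to 52222999, 18 cytosines) had 57.6% in control and 24.5% in cKO. A CHH region of 58 cytosines just inside the same end of Hoxa9 (52223319 to 52223516) had 6.41% in control and 1.34% in cKO. It lies 3854 bp from the start site, at the far end of the gene. In Hoxd3 a CHH region (chromosome 2, 74720700 to 74720786) had 3.68% in control and 0.650% in cKO. It lies 942 bp from the promoter window of Hoxd4, whose gene sits inside the long gene model of Hoxd3. One more CHH loss of the Hoxd cluster lay in the noncoding gene Haglr, with 4.60% in control and 0.777% in cKO.

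The 2 regions with more CG methylation in cKO started from low levels in control and were dense in CG sites. In Hoxd8 the level was 8.65% in control and 18.8% in cKO over 27 cytosines within 59 bp (74704935 to 74704993). This region begins 320 bp after the Hoxd8 start site and 271 bp after the end of the promoter printed above. It also overlaps the noncoding gene Gm38462. In the Hoxa cluster a region of 22 cytosines within 111 bp (52230579 to 52230689) had 17.96% in control and 49.3% in cKO. It lies in the noncoding gene Gm52902, at 508 bp from Hoxa10 and 414 bp from the hairpin of Mir196b. Gains were the less frequent direction throughout the table, at 5.57% of all CG regions and 14.8% of those in protein-coding genes. The median control level of all 2626 CG gains was 51.1%, above both Hox gains. The CG losses of the windows, in contrast, held a median of 7.59 cytosines per 100 bp, while the 2 gains held 45.8 (Hoxd8) and 19.8 (near Hoxa10). Gains were also the denser direction over the whole table, with medians of 11.0 for CG gains and 7.14 for CG losses.

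**Figure D2:**
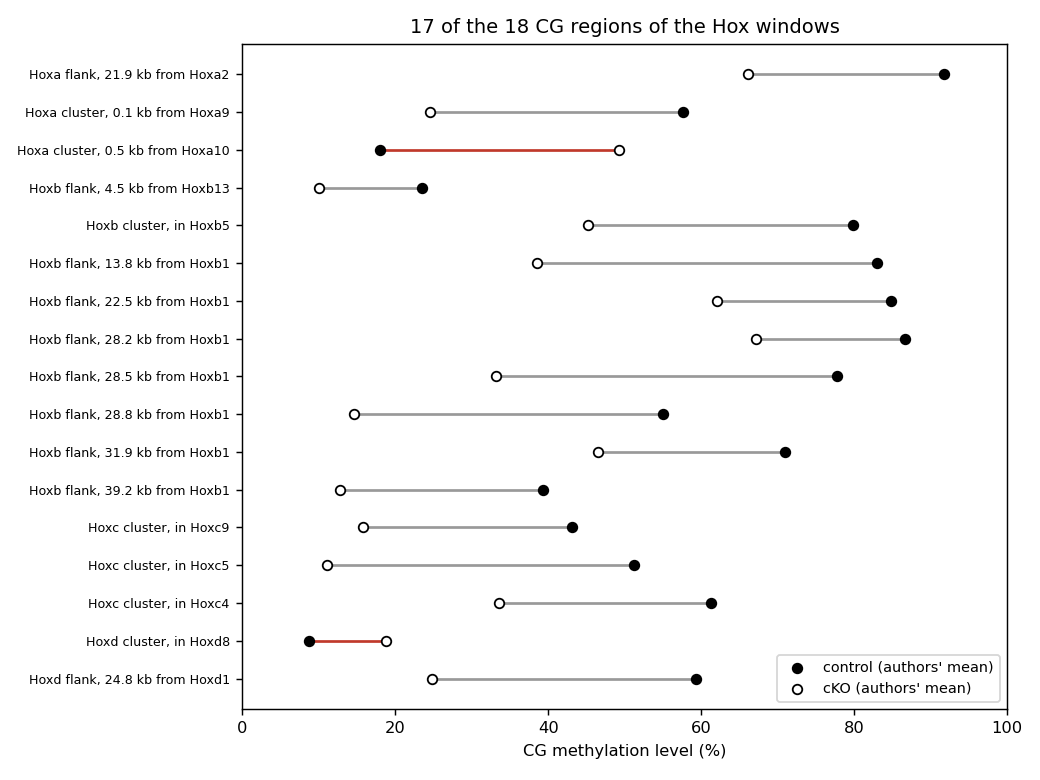
CG methylation level (percent) of 17 of the 18 CG regions of the Hox windows, with the authors' mean in control as filled and in cKO as open circles. Each line is a region named by its place and nearest member gene. In the 2 regions joined by a red line, near Hoxa10 and in Hoxd8, cKO is the higher group.

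Outside the clusters, losses were more frequent on the side of the lowest-numbered member. The flanks of 50 kb beside Hoxa2, Hoxb1, Hoxc4 and Hoxd1 held 35 of the 42 flank regions (83.3%), and those beside Hoxa13, Hoxb13, Hoxc13 and Hoxd13 held 7, over 200 kb of sequence each. Within the single clusters the counts were 4 and 3 in Hoxa, 13 and 1 in Hoxb, 14 and 2 in Hoxc, and 4 and 1 in Hoxd. The direction was the same in each of the 4 clusters, although in Hoxa the sides differed by a single region. Hoxb and Hoxc supply 27 of the 35, so the pooled share rests largely on them. By context, the first sides held 10 CG and 25 CHH losses and the second 1 and 6. At 20 kb the first sides held 12 of 14 regions, with 0 against 1 in Hoxa. At 100 kb they held 66 of 86, with 7 and 4 in Hoxa, 17 and 11 in Hoxb, 36 and 4 in Hoxc, and 6 and 1 in Hoxd. Hoxc thus supplied more than any other cluster at that width, and in Hoxb the sides differed less than at 50 kb. The 86 also include gains, 1 CG and 1 CHH on the first sides and 2 CHH on the second. The split by side was chosen after the values were seen, and no test was made of the difference.

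**Figure D3:**
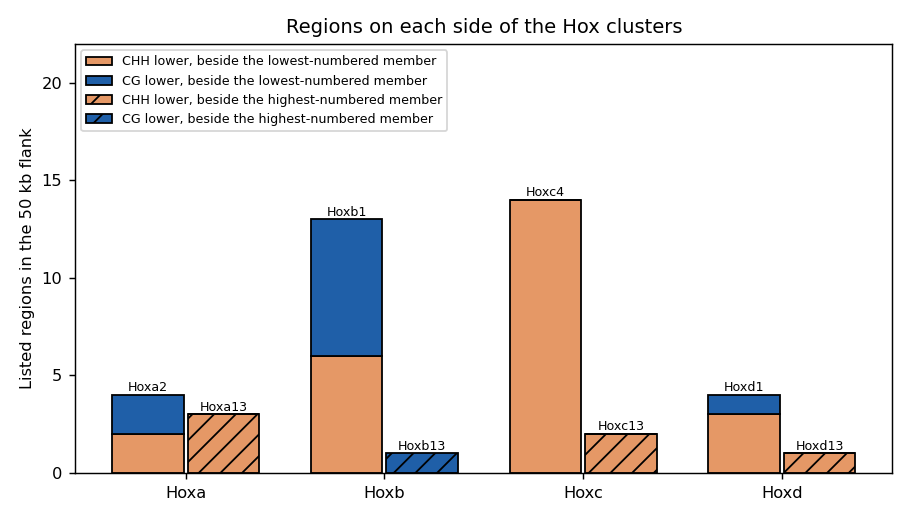
Number of listed regions in the 50 kb flanks of each Hox cluster, beside the lowest-numbered (plain bars) and the highest-numbered member gene (hatched bars), split into CHH and CG losses. The bars reach 13 beside Hoxb1 and 14 beside Hoxc4, and 3 or fewer beside the members numbered 13.

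Beyond Hoxb1 the losses fell in a stretch of 37.8 kb with no RefSeq protein-coding gene. Its 7 CG regions ranged from 39.3% to 86.7% in control and from 12.7% to 67.1% in cKO. The largest CG differences of all the windows were there, at 13780 bp from Hoxb1 (83.0% in control and 38.5% in cKO) and at 28529 bp (77.8% and 33.1%). Next to the latter lay a region of 427 bp and 19 cytosines with 55.1% in control and 14.6% in cKO. The CG region with the most cytosines among the losses, 26, lay at 39191 bp from Hoxb1 with 39.3% in control and 12.7% in cKO. In the same stretch lay 6 CHH losses, which ranged from 3.09% to 6.09% in control, and each was at or under 1.08% in cKO. On the other side of the cluster, the only region within 50 kb was a CG loss 4504 bp from Hoxb13 (23.5% in control and 10.03% in cKO).

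Beyond Hoxc4 only CHH losses were listed, 14 of them over 46.8 kb (103038259 to 103085042). Their levels ranged from 3.48% to 7.61% in control and from 0.517% to 1.63% in cKO. The first 6 lie in the noncoding gene Gm30528, which overlaps the end of Hoxc4. On the Hoxc13 side, 2 CHH losses had 6.16% and 8.17% in control and 1.12% and 1.54% in cKO. In the Hoxa flanks, CG methylation was 91.7% in control and 66.1% in cKO at 21901 bp from Hoxa2. On the same side, 2 CHH losses had 4.83% and 8.03% in control and 1.04% and 1.42% in cKO. The 3 CHH losses beyond Hoxa13 had 4.56%, 6.22% and 6.06% in control and 0.824%, 1.101% and 0.858% in cKO. The single CG loss beside the Hoxd cluster, 24848 bp from Hoxd1, had 59.3% in control and 24.8% in cKO. The 3 CHH losses on that side had 6.34%, 5.67% and 5.08% in control and 1.22%, 0.783% and 0.497% in cKO. Beside Hoxd13, 1 CHH loss had 4.22% in control and 0.671% in cKO. Evx2, the homeobox gene next to Hoxd13, overlapped no region. Of the 8 regions nearest to the window borders on the outside, 5 were lower and 3 higher in cKO. The nearest of them was a CHH loss 1.01 kb beyond the lower border of Hoxb (4.87% in control and 0.628% in cKO). The 3 gains were a CHH region beyond the lower border of Hoxc (3.10% in control and 8.82% in cKO), a CHH region beyond that of Hoxd (0.318% and 3.05%) and a CG region beyond the upper border of Hoxd (69.1% and 87.8%). Just inside, the nearest was a CHH loss 1.81 kb from the upper border of Hoxc (7.61% and 1.63%).

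Per Mb of sequence, fewer CHH losses were listed inside than beside each of the 4 clusters, while for CG losses the order differed among the clusters. CHH losses numbered 24.7 per Mb inside the clusters and 77.5 per Mb in the flanks, against 17.6 per Mb over the autosomes and X. CG losses numbered 10.3 per Mb inside and 27.5 per Mb in the flanks, against 17.4 per Mb. These were 12 and 31 CHH losses and 5 and 11 CG losses. Hoxb supplied 8 of the 11 CG losses in the flanks, and Hoxc had 3 CG losses inside and 0 beside it. Without Hoxb the CG order turned, with 12.9 per Mb inside and 10 per Mb in the flanks (4 and 3 regions), and without Hoxc it was 5.42 and 36.7 per Mb. CHH losses per Mb differed among the windows, from 30.2 in Hoxa and 30.5 in Hoxd to 36.5 in Hoxb and 97.3 in Hoxc. CG losses were 5.08 per Mb in Hoxd, 13.9 in Hoxc, 15.1 in Hoxa and 32.9 in Hoxb, so the order of the clusters differed between the contexts. The 8 windows around other homeobox gene groups (Irx, Dlx, Nkx2-1 and others), taken in the same way, held 65.4 CHH and 34.3 CG losses per Mb. Of these, the Irx1/2/4 window supplied 79 CHH and 39 CG losses and the Irx3/5/6 window 87 and 63, out of 231 and 121. Single windows among the 8 ranged from 25.3 to 134.7 CHH and from 0 to 75.9 CG losses per Mb. The whole Hox windows, clusters and flanks together, held 48.6 CHH and 18.1 CG losses per Mb. In the 8 other windows 121 of 121 CG and 231 of 232 CHH regions were lower in cKO. These densities were not matched on cytosine content or on the sequence that could be read, and were not tested.

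**Figure D4:**
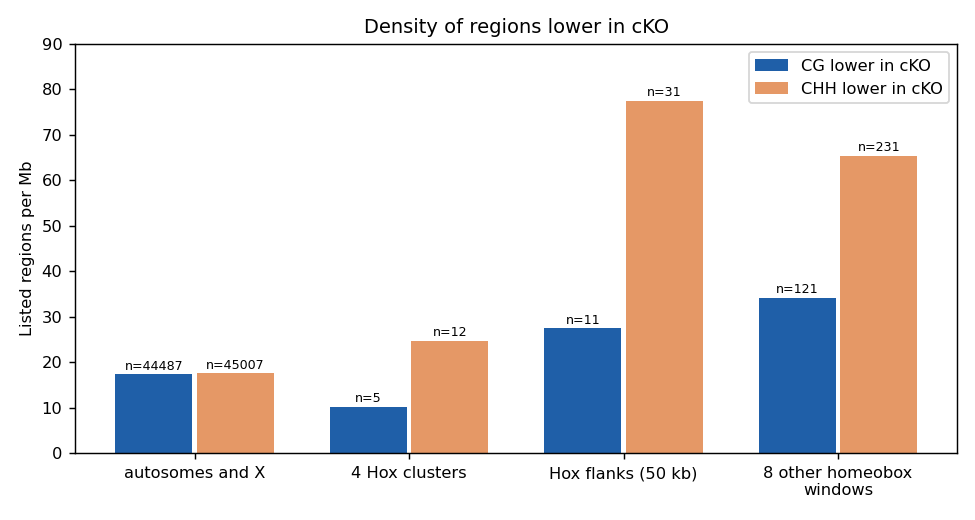
Listed regions lower in cKO per Mb of sequence, for CG (blue) and CHH (orange), over the autosomes and X, inside the 4 Hox clusters, in their 50 kb flanks and in 8 windows around other homeobox genes. The 8 other windows are drawn whole, gene groups and flanks together, while the Hox windows are split. The number above each bar is the count of regions. The Hox flanks reach 77.5 CHH losses per Mb and the clusters 24.7.

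Each window had a long stretch with no listed region. In Hoxa 82.3 kb were free of regions, from 52140517 to 52222836, a stretch that covers the whole of Hoxa2, Hoxa3, Hoxa4, Hoxa5, Hoxa6 and Hoxa7. In Hoxc the longest such stretch had 87.9 kb (102890210 to 102978094) and held Hoxc10, Hoxc11, Hoxc12 and Hoxc13 with the noncoding gene Hotair. In Hoxd 57.6 kb were free (74647383 to 74704934), covering the members from Hoxd9 to Hoxd13, and in Hoxb 55.8 kb, covering Hoxb8 and Hoxb9. A stretch without a listed region shows only that no difference was called there. It gives no level, and it cannot be told from a stretch with too few reads or too little methylation to differ.

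Of the 16 CG losses in the windows 9 had a CHH loss within 1 kb (56.3%), against 22.01% of all CG losses in the table. In the reverse direction 9 of 43 CHH losses had a CG loss within 1 kb (20.9%), against 21.4% of all. Of the CG losses 3 shared bases with a CHH loss, in Hoxb5, in Hoxc4 and beyond Hoxb1. The difference between the first pair of shares was not tested, and neighbouring regions are not independent. Beyond Hoxb1, the CG losses that begin at 96396494, 96396783 and 96397094 all lie within 1 kb of the same CHH loss (96396851 to 96396920). The shares were also not matched on the density of CHH losses, which was 2.76 times that of the genome in the Hox windows.

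None of the 47 RefSeq promoter windows of 300 bp inside the Hox windows shared a base with a listed region. Over the genome 2.74% of 32817 such windows did, so the count of 0 lies near that background. The promoters of members, 24 entries for 22 of the 38 genes, held a median of 14.5 CG dinucleotides (4 to 45), against 7 for all promoters. The distance from these promoters to the nearest region ran from 271 bp (Hoxd8) to 27.4 kb (Hoxd12), with a median of 9.82 kb. For the others printed above it was 2959 bp for Hoxa9, 3815 bp for Hoxc4 and 6750 bp for Hoxd3. The printed Hoxc4 promoter lies well inside the Hoxc4 gene model, which begins at 103018097. The region nearest to it is a CHH loss in the flank (from 103038259), while the 3 losses of Hoxc4 lie near the beginning of the gene model. Among the microRNA genes, the hairpins of Mir196b (0.414 kb, a CG gain) and Mir615 (1.45 kb, a CHH loss) lay nearest to a region. Mir196a-2, Mir10b, Mir10a and Mir196a-1 followed at 4.66, 5.28, 10.8 and 23.8 kb.

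CHH methylation inside Hox genes was lower in cKO wherever it was listed. The 8 CHH regions that overlap a member gene were all lower, while 41.2% of the CHH regions in protein-coding genes were higher. Genes of the members' length seldom carried a CHH gain (0.855% of those of 1.5 to 10 kb), so the 2 backgrounds differ. Levels in the 8 regions ranged from 3.58% to 6.41% in control and from 0.535% to 1.34% in cKO. Across the 43 CHH regions of the windows, 34 had between 4% and 7% in control and 26 were under 1% in cKO. The ratio of control to cKO ran from 4.003 to 20.1, with a median of 5.65, and the whole table had a median of 5.36. Mitochondrial DNA moved with this result. Its 17 listed regions were all lower in cKO, and its 4 CHH regions stood between 5.43% and 19.9% in control and between 0.379% and 0.519% in cKO. The median mitochondrial CHH difference, 5.87 points, was exceeded by 3 of the 43 Hox CHH losses (6.98%) and by 16.1% of all CHH losses. The part of this mitochondrial difference in the CHH losses of the Hox windows was not tested.

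**Figure D5:**
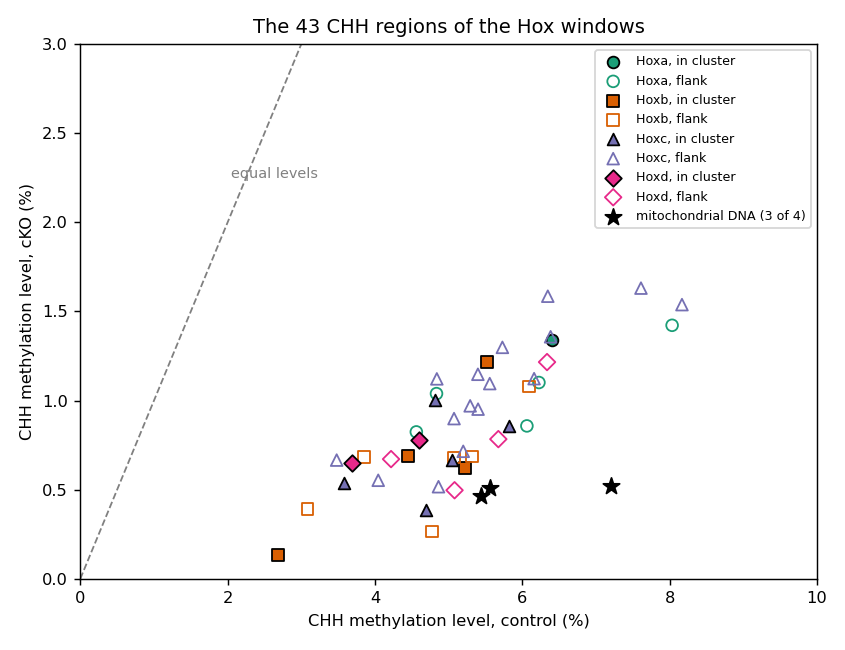
CHH methylation level (percent) in control (x axis) and cKO (y axis) for the 43 CHH regions of the Hox windows, filled inside and open outside the clusters. Stars are 3 of the 4 mitochondrial CHH regions, the last lying at 19.9% in control beyond the axis, and the dashed line marks equal levels. All points lie under the line, with 0.134% to 1.63% in cKO.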

How the data were processed

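Bisulfite libraries came from 2 cKO and 2 control samples. CASAVA, Bowtie2 and the build mm10 are named in the submitters' processing notes, with no role stated. The region caller, its cutoffs and the conversion rate: not given in the sources used here. The authors deposited 1 table of called regions, in which methylation is a fraction averaged per group; it was converted to percent. The area statistic that the authors deposited is an unbounded score, used for an alternative filter and to rank genes. Differences, lengths and numbers of cytosines are also the authors'. In 216 CG regions inside RefSeq promoters the number of cytosines was a median of 2 per CG site, so both strands are counted. Read depth is unknown, and no interval or test over libraries was computed. Whether replicates were separate animals is not stated in the labels.

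Gene and promoter positions came from RefSeq on GRCm38.p6, which matched all 38 members; genes starting before 3 Mb on the autosomes and X were dropped, and exons were not analysed here. Regions were assigned by position (Python 3.11.15, pandas 2.3.3), with at least 1 bp shared for genes and whole containment for windows, and the code was tested on simulated data. The span from the first to the last listed region of each chromosome was the base for genome densities. A context's regions could all be named if the windows held at most 60; of other gene lists, up to 3 genes with the largest absolute area statistic per context were named. The values of 1 gene so chosen and of 1 flank region are not reported here. The members and lists were chosen with earlier results of these data known. Alternatives were flank width, partial overlap, stricter filters on regions, means weighted by cytosines, and genes widened by 2 kb.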

Additional observations from a re-analysis of the deposited data

How the results depend on the processing

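Of 92 values recomputed under alternatives, 66 stayed within 1.5 times the reported value (counts and densities) or within 1 SD over regions (levels), 21 moved further and 5 turned in direction. The 66 include counts of CHG regions and of CHH gains that were 0 in both settings. Under narrower windows or stricter filters such a count of 0 could not change, so there it says nothing of stability. The density of CG losses in the windows, 1.04 times that of the genome, fell under it with no flank (0.593), with 20 kb (0.624) or 100 kb flanks (0.984) and with differences of at least 30 points (0.914), so it gives no direction. CG losses were 2.67 times as dense beside the clusters as inside; this became 0.778 without Hoxb and 6.77 without Hoxc, an alternative chosen after seeing the data. With no flank the windows held 5 CG and 12 CHH losses, the latter at 1.41 times the genome (main: 16 and 43, the latter at 2.76 times). With 20 kb flanks they held 7 CG losses and 24 CHH losses, and with 100 kb flanks 77 CHH losses and 3 CHH gains, where 0 gains were listed at 50 kb. Keeping area statistics at or above the median of their context left 9 CG losses, 2 members with a CG loss and 4 with a CHH loss (main: 4 and 7). Keeping differences of at least 30 points in CG or 5 in CHH left 8 CG losses, 1 CG gain, 10 CHH losses, 2 members with a CG loss and 1 with a CHH loss. Keeping at least 10 cytosines left 9 CG losses and 2 members with one. Keeping CHH differences above the mitochondrial median, which was chosen after seeing the data, left 3 CHH losses (1.20 times the genome) and 0 members. These alternatives keep fewer or more bases or regions by construction. What depth limits cannot be read from group means. No paired analysis was possible because the table holds group means and no values per library; leaving out a library was not possible for the same reason.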

Other observations

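Genes of the TALE family, whose products bind DNA together with HOX proteins, carried regions in both directions. Of the 9 genes, 3 overlapped a CG loss, 2 a CG gain, 3 a CHH loss and 5 a CHH gain. These genes have a median length of 139 kb, and over all protein-coding genes, which are shorter, the shares were 18.6%, 7.26%, 15.2% and 15.0%. Meis1 held 5 CG and 6 CHH losses and no gain. In its CG region with the largest area statistic the level was 85.6% in control and 47.9% in cKO, and in the CHH region so chosen 11.3% and 2.18%. Pbx3 held 11 CG and 4 CHH losses and no gain, with 90.1% in control and 69.96% in cKO in the CG region chosen likewise. Meis2 held 5 CG losses, and its leading CHH region was higher in cKO (2.12% in control and 7.57% in cKO).

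Retinoic acid signalling and the Cdx factors set Hox expression in the embryo. Of 15 such genes, 11 overlapped a CG loss, 4 a CG gain, 6 a CHH loss and 1 a CHH gain, with a median gene length of 22.6 kb. Over all protein-coding genes the shares with such a region were 18.6%, 7.26%, 15.2% and 15.0%. Rarb, a retinoic acid receptor gene of 651 kb, held 11 CG and 11 CHH losses and no gain, and its leading CHH region had 10.2% in control and 0.749% in cKO. Rxra held 10 CG and 5 CHH losses, with 8.85% in control and 1.48% in cKO in its leading CHH region. In Rxrg, another retinoid X receptor, the leading CHH region had 12.2% in control and 2.06% in cKO. Cyp26c1 and Cyp26b1 encode enzymes that degrade retinoic acid. CG methylation was 46.4% in control and 27.9% in cKO in the leading region of Cyp26c1, and 69.0% and 47.6% in that of Cyp26b1. Rxrb held 1 CG gain, from 8.57% in control to 24.5% in cKO over 35 cytosines. None of these differences has a test over libraries.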
